A study of Homo sapiens with 24 samples.

Results

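The DNA damage checkpoint kinases and mediators were followed through 24 RNA samples of human colorectal adenocarcinoma cells. The set holds 10 genes taken by symbol, of which 9 are among the 33113 genes of the count table and TP53BP1 is among the 37967 genes of a second, length-scaled table. All 10 had counts in the tests. HCT116 cells were compared with HCT116 oxpl-R cells, an oxaliplatin-resistant population that the study raised from HCT116 by repeated pulses of the drug and describes as hypotetraploid. All groups, the untreated ones included, carry a TetOn-E1A transgene, so that doxycycline switches on the adenovirus gene E1A. Each line had 4 conditions with 3 biological replicates each, 8 groups in all: untreated, oxaliplatin at 25 µM over 24 h, doxycycline at 0.5 µg/mL, and both, the doxycycline being added 3 h earlier. No group had doxycycline without the transgene, so the effects of E1A and of doxycycline cannot be told apart. Below, the doxycycline groups are called E1A.

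A cell that meets broken or stalled DNA stops its cycle through 2 kinase routes. ATM is activated at double-strand breaks, and ATR, held on single-stranded DNA by its partner ATRIP, is activated at stalled forks with the help of a clamp that contains RAD9A and is loaded by RAD17. The effector kinases CHEK2 and CHEK1 act below ATM and ATR and restrain the CDC25 phosphatases. On chromatin, the histone variant H2AX is phosphorylated beside the break, MDC1 binds the phosphorylated tail, and TP53BP1 is recruited after it. Oxaliplatin forms platinum adducts on DNA, and E1A binds the RB proteins and releases the E2F factors that drive S phase genes. These proteins are regulated largely by phosphorylation, and the values here are of RNA only.

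H2AX, MDC1 and TP53BP1 carried most of the differences, and their upstream sequences are shown for that reason. The windows are the 250 bases before the RefSeq transcription start on GRCh38.p14, on the strand of the gene. They are chr11:119095466-119095715 for H2AX, chr6:30717282-30717531 for MDC1 and chr15:43510641-43510890 for TP53BP1, all on the minus strand. Capitals mark the CCAAT box, which the factor NF-Y binds, on either strand (CCAAT or ATTGG).
H2AX: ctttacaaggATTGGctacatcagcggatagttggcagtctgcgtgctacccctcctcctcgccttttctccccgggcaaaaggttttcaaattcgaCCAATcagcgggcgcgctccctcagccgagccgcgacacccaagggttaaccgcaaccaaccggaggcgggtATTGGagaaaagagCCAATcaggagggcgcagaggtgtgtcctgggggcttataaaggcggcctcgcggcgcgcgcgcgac
MDC1: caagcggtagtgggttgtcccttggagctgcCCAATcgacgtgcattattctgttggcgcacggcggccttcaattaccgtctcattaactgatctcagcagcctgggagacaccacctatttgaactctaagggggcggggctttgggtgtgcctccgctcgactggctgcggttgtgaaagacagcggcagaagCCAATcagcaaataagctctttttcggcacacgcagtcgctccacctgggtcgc
TP53BP1: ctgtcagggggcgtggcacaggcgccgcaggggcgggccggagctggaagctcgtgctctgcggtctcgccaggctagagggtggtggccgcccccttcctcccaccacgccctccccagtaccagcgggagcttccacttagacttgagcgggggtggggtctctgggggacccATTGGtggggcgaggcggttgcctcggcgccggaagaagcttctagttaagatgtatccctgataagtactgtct

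H2AX had 4 CCAAT boxes, MDC1 had 2 and TP53BP1 had 1. CHEK2 had 3 in its window and CHEK1 had 3 in 1 of its windows, and neither passed the test between the lines. Of 35116 RefSeq windows of the same length, 32% held at least 1 CCAAT box, 9.5% held 2 or more, 2.9% held 3 or more and 0.9% held 4 or more. The boxes of H2AX began 240, 153, 81 and 67 bases before the start. Among the 10 genes, 9 had a CCAAT box in at least 1 of their windows, and ATR was the exception. The shares above are of single windows. A share of genes with a box in any window was not taken, so the 9 have no background here. The E2F sites searched on both strands, TTTGGCGC, TTTCCCGC, TTTCGCGC and TTTGCCGC, were in none of the 16 windows of the 10 genes, against 2.8% of all windows, so none overlapped a CCAAT box. Such matches describe letters only.

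The libraries held 24838095 to 37927720 counts in the count table. Levels are given as CPM (counts scaled to a common library size) after TMM normalisation and are not divided by gene length, so they are compared between samples and never between genes. The labelled cell type was checked against its markers. The epithelial genes EPCAM (175 to 388 CPM), KRT8, KRT18, KRT19, CDH1 and CDX2 were present in all 24 samples, whereas CDX1 and LGALS4 did not exceed 0.73 CPM. Of 4 fibroblast genes COL1A1 reached 40.3 CPM and COL1A2 13 CPM, and DCN and LUM reached at most 3 counts. Of 3 immune genes CD68 was above 0 in all 24 samples (0.343 to 6.57 CPM), and PTPRC and CD3E reached at most 14 and 5 counts. The endothelial genes PECAM1 and CDH5 reached at most 13 and 7 counts. Samples of one group differed with transcript GC content, the correlation of a sample's deviation from its group mean with GC over genes running from -0.61 to 0.58. That trend is given below beside the genes that moved with it.

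Between the lines, the mediators MDC1 and TP53BP1 were lower in HCT116 oxpl-R cells in every condition, by 2.1-fold to 3.7-fold, and in no condition did a sample of one line reach the range of the other. H2AX was lower in the resistant line in 3 of the 4 conditions, most of all under oxaliplatin. The kinases ATM, ATR, CHEK1 and CHEK2, with ATRIP and RAD17, did not pass the test in any comparison of the lines.

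MDC1 (chromosome 6, GRCh38 30699807 to 30717447, minus strand) is the scaffold that reads phosphorylated H2AX. Its level in untreated HCT116 was 83.3, 82.1 and 116 CPM, and in untreated HCT116 oxpl-R it was 41.5, 40.9 and 42 CPM. Under oxaliplatin it was 63.7, 68.8 and 98.1 CPM in HCT116 against 18.4, 20.4 and 23.7 CPM in HCT116 oxpl-R. The resistant samples lay below all HCT116 samples in both conditions and were close to each other. With E1A the levels were 137, 134 and 111 CPM against 66.7, 55.1 and 58.9 CPM. With E1A and oxaliplatin they were 111, 76.9 and 76.8 CPM against 40.8, 32.3 and 32.8 CPM. The line difference was thus 2.26-fold (log2 fold change -1.18 ± 0.19, SE, edgeR adjusted p = 4.73e-05) in untreated cells. It was 3.7-fold (-1.89 ± 0.20, adjusted p = 1.11e-08) under oxaliplatin, 2.11-fold with E1A (adjusted p = 0.000174) and 2.5-fold with both (adjusted p = 6.99e-06).

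TP53BP1 (chromosome 15, 43403061 to 43510728, minus strand) directs repair towards end joining at marked breaks. Its level was 69, 71.7 and 75 CPM in untreated HCT116 and 25.4, 34.4 and 23.1 CPM in untreated HCT116 oxpl-R. Under oxaliplatin the levels were 33.6, 38.1 and 64.5 CPM against 18.7, 21.3 and 14 CPM. The lines did not overlap, although the third HCT116 sample under oxaliplatin was well above the others. With E1A the levels were 69.3, 92.4 and 44.9 CPM in HCT116 and 24.8, 24.4 and 25.1 CPM in HCT116 oxpl-R. With E1A and oxaliplatin they were 48.3, 38.3 and 31 CPM against 25.8, 18.3 and 11.8 CPM. The line difference was 2.6-fold in untreated cells (log2 fold change -1.38 ± 0.27, SE, edgeR adjusted p = 0.000675). It was 2.52-fold under oxaliplatin (adjusted p = 0.000384), 2.78-fold with E1A (adjusted p = 0.000386) and 2.1-fold with both (adjusted p = 0.00505). MDC1 kept these calls under all 8 alternatives and TP53BP1 under the 7 that apply to it, and both kept them with each sample left out.

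Chromosome 6 as a whole was slightly lower in the resistant line, with a median log2 fold change of -0.27 over 556 expressed genes in untreated cells. On it, 6.12% of the genes lay below MDC1. The median of chromosome 15 was -0.22 over 451 genes, and 2.66% of them lay below TP53BP1. MDC1 overlaps TUBB and MDC1-AS1, and TP53BP1 overlaps TUBGCP4, each on the opposite strand. Whether the libraries kept strand is not stated, so reads of such neighbours could not be told apart by strand here.

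H2AX (chromosome 11, 119093874 to 119095465, minus strand), the histone variant that carries the break mark, covered the widest range of the 10 genes. Between its lowest and highest sample the ratio was 15.5. In untreated cells it was at 299, 299.9 and 345 CPM in HCT116 and at 235, 252 and 212 CPM in HCT116 oxpl-R. Under oxaliplatin it was at 277, 261 and 234 CPM in HCT116 and at 76.7, 68.8 and 43.3 CPM in HCT116 oxpl-R. The 3 resistant samples under oxaliplatin were the 3 lowest of the series. With E1A it was at 653, 672 and 636 CPM in HCT116 and at 487, 343 and 365 CPM in HCT116 oxpl-R. With E1A and oxaliplatin it was at 397, 389 and 349 CPM against 228, 196 and 297 CPM. The order of group means ran from HCT116 with E1A (654 ± 17.9 CPM, SD, n = 3) to HCT116 oxpl-R with oxaliplatin (62.9 ± 17.4 CPM), and both ends were clear of their neighbours.

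The line difference of H2AX under oxaliplatin was 4.09-fold (log2 fold change -2.03 ± 0.20, SE, edgeR adjusted p = 2.85e-09). In untreated cells the value was -0.43 ± 0.19, which did not pass (adjusted p = 0.14), although the samples did not overlap. It passed there when only the 2 groups were fitted (adjusted p = 0.0119), with limma (0.0343) and with offsets for GC content and length (0.00208). With E1A the line difference was 1.64-fold (adjusted p = 0.00959), and with both it was 1.58-fold (adjusted p = 0.0133). The call with E1A was lost without HCT116 oxpl-R E1A replicate 2 (adjusted p = 0.0645). That with both was lost without HCT116 oxpl-R E1A + oxaliplatin replicate 1 (0.0537) or replicate 2 (0.107).

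RAD9A (chromosome 11, 67317871 to 67398410, plus strand), a subunit of the checkpoint clamp, was at 28.4, 32.1 and 23.2 CPM in HCT116 under oxaliplatin and at 17.3, 15.4 and 9.91 CPM in HCT116 oxpl-R. The lines did not overlap there. The difference was 1.96-fold (log2 fold change -0.97 ± 0.22, SE, edgeR adjusted p = 0.000904), but it did not pass on the length-scaled table (adjusted p = 0.0597) or with limma (0.0644). In untreated cells the levels were 24.8, 23.8 and 29 CPM against 19.4, 21.3 and 20.4 CPM, and the difference did not pass (adjusted p = 0.353). With the GC and length offsets it passed (0.0449). With E1A and oxaliplatin the difference was -0.56 ± 0.22 and did not pass (edgeR adjusted p = 0.0708), while it passed with RLE (0.0445), DESeq2 (0.0152), filterByExpr (0.0261) and the offsets (0.0485). RAD9A overlaps 8 annotated genes, among them POLD4, CLCF1 and PPP1CA on the opposite strand.

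In untreated cells 2 of the 10 genes were called lower in HCT116 oxpl-R, where 6.93% of the 19452 genes tested on the count table and 6.04% of the 22833 tested on the second table were. Under oxaliplatin 4 were called lower (background 12% and 12.5%), with E1A 3 (7.75% and 5.54%) and with both 3 (8.92% and 8.82%). Those backgrounds include genes with few counts, which are seldom called. After filterByExpr, which drops such genes, 1442 of 12009 genes of the count table were called lower in untreated cells. Of the same 12009, 2713 were called lower under oxaliplatin, 1479 with E1A and 2210 with both. In the edgeR fit of all 24 samples without offsets or filter, none of the 10 was called higher in any condition. Samples of the lines did not overlap for 5, 4, 5 and 3 of the 10 genes in these conditions, against 35%, 30.2%, 29.6% and 31.3% of the genes of the count table. Those shares of non-overlapping genes are near the background. The median log2 fold change of the 10 genes was -0.39 in untreated cells against -0.03 over expressed genes, and -0.19 against 0.09 under oxaliplatin.

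**Figure D1:**
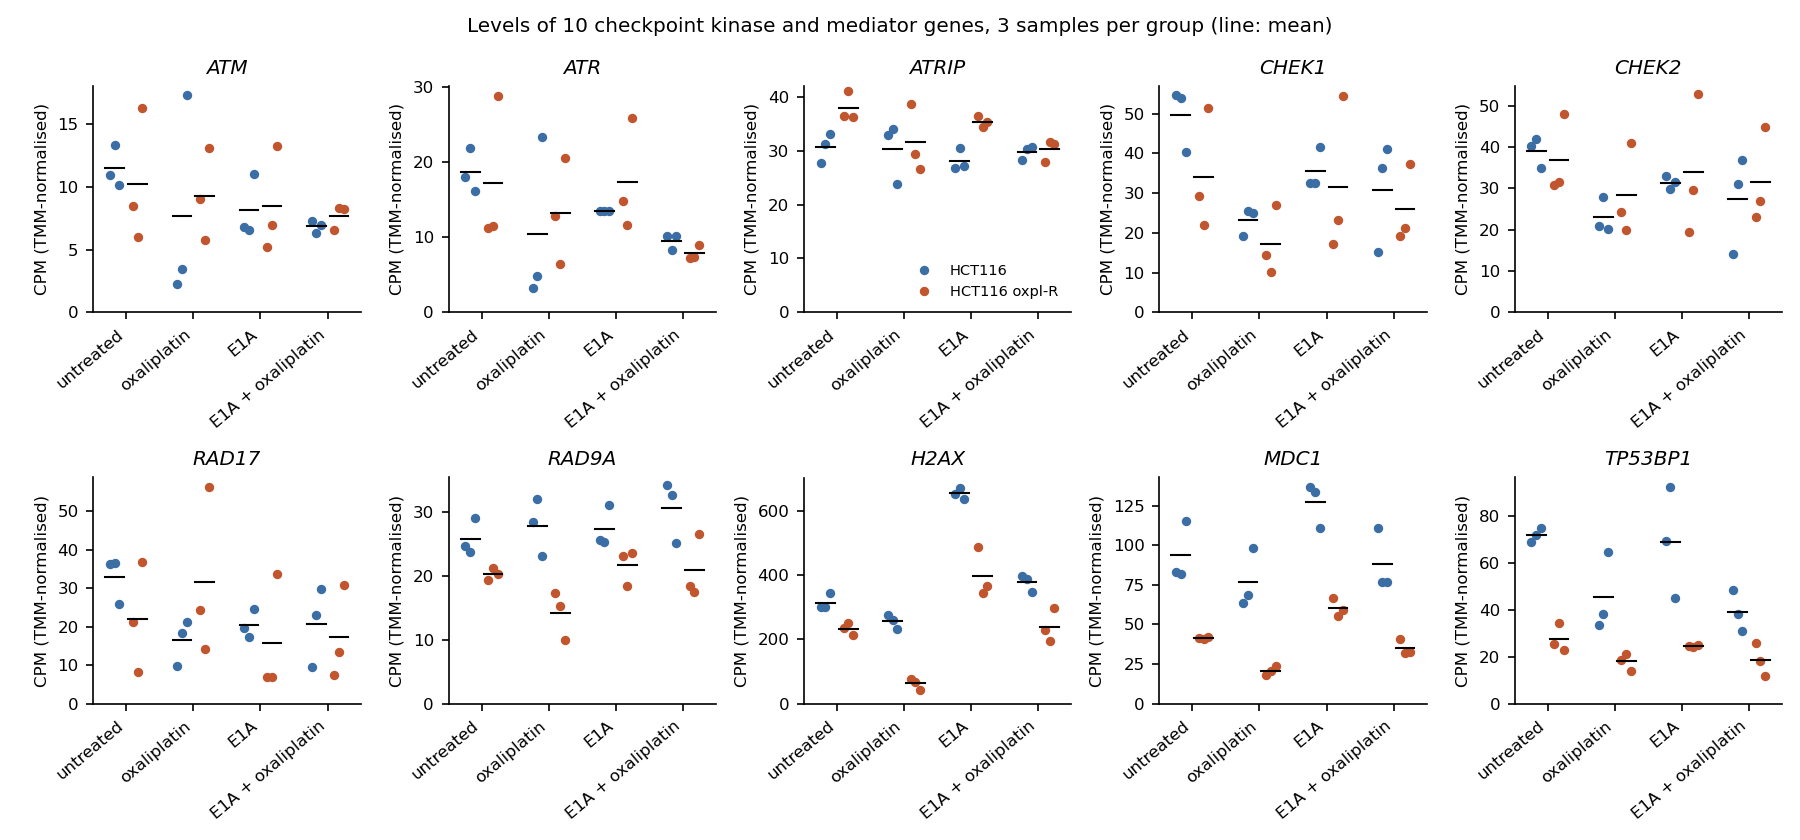
Levels of the 10 genes in TMM-normalised CPM (vertical axes, from 0) by treatment, with 3 samples per group as points and the group mean as a line, HCT116 in blue and HCT116 oxpl-R in orange. MDC1 and TP53BP1 show separate lines in all 4 conditions, and H2AX falls to between 43.3 and 76.7 CPM in HCT116 oxpl-R under oxaliplatin.

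The response to oxaliplatin was largest for H2AX in HCT116 oxpl-R, where its RNA dropped 3.7-fold (log2 fold change -1.89 ± 0.20, SE, edgeR adjusted p = 3.63e-08). In HCT116 the levels of H2AX also separated, but the change was small (-0.29 ± 0.19) and did not pass (adjusted p = 0.344). The difference between these 2 responses was itself tested, and it came to -1.60 ± 0.27 (interaction term, edgeR adjusted p = 0.000711). Of the 19452 genes 2.78% passed that interaction test, and of the 10 genes H2AX alone passed. H2AX is GC-rich (66.8% of its longest transcript, against a median of 49.1% over expressed genes), and its deviations within groups followed the GC trend of the libraries (r = 0.82 over 24 samples). With offsets for GC content and length, the response in HCT116 became -0.82 (adjusted p = 4.43e-05) and the interaction -1.09 (adjusted p = 0.000226). Over all alternatives the interaction ran from -1.69 to -1.09 and passed in each.

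MDC1 was also lower under oxaliplatin in HCT116 oxpl-R, 1.99-fold (log2 fold change -0.99 ± 0.19, SE, edgeR adjusted p = 0.00083). In HCT116 its change was -0.28 ± 0.19 (adjusted p = 0.356). The difference between the responses of MDC1 was -0.71 ± 0.27 and did not pass (adjusted p = 0.175), though it passed with DESeq2 (0.044) and with the GC and length offsets (0.0273). TP53BP1 changed by -0.66 ± 0.27 in HCT116 (adjusted p = 0.0927) and by -0.62 ± 0.27 in HCT116 oxpl-R (adjusted p = 0.232), which did not pass. Without HCT116 oxaliplatin replicate 3 the fall in HCT116 passed (adjusted p = 0.0102). Within groups, deviations of TP53BP1 (r = 0.65) and MDC1 (r = 0.63) followed the trend of the libraries with transcript length over 24 samples. Their longest transcripts have 10369 and 6968 bases.

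In HCT116 the one gene called under oxaliplatin was CHEK1, the effector kinase of the ATR route, which was at 54.7, 53.9 and 40.4 CPM before and at 19.1, 25.5 and 25 CPM after. It fell 2.14-fold (log2 fold change -1.10 ± 0.38, SE, edgeR adjusted p = 0.0412). The call was lost with each of the 6 samples left out (adjusted p up to 0.221) and with the GC and length offsets, where the value was -0.56 (adjusted p = 0.381). In HCT116 oxpl-R the levels were 29.3, 21.9 and 51.3 CPM before and 14.4, 10.2 and 26.9 CPM after, a change of -0.99 ± 0.38 that did not pass (adjusted p = 0.134). The third sample was the highest on both sides. CHEK2, the effector kinase of the ATM route, moved from 40.2, 41.8 and 34.8 CPM to 20.8, 27.8 and 20.2 CPM in HCT116 (-0.76 ± 0.32, adjusted p = 0.102) and did not pass. It passed in HCT116 when only the groups compared were fitted (adjusted p = 0.0189).

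When E1A was on, oxaliplatin lowered H2AX 1.73-fold in HCT116 (log2 fold change -0.79 ± 0.19, SE, edgeR adjusted p = 0.0085) and 1.66-fold in HCT116 oxpl-R (-0.73 ± 0.19, adjusted p = 0.0279). MDC1 was 1.71-fold lower in HCT116 oxpl-R (adjusted p = 0.0186). The call in HCT116 was lost without HCT116 E1A + oxaliplatin replicate 2 (adjusted p = 0.0575) or replicate 3 (0.0715). In HCT116 oxpl-R the call of H2AX was lost without E1A replicate 1 (0.202) and without E1A + oxaliplatin replicate 1 (0.122) or replicate 2 (0.212). The call of MDC1 there was lost without E1A replicate 1 (0.0822) and without E1A + oxaliplatin replicate 2 (0.112) or replicate 3 (0.0899). Oxaliplatin thus gave 1 call lower of 10 in HCT116, where 8.61% of the genes of the count table were called lower, and 2 in HCT116 oxpl-R, where 3.01% were. On E1A it gave 1 in HCT116 (background 4.69%) and 2 in HCT116 oxpl-R (1.1%). Treated and untreated samples did not overlap for 5 and 4 of the 10 genes without E1A (background 33% and 18.4%) and for 2 and 4 with it (25.9% and 15.1%), in HCT116 and HCT116 oxpl-R in that order.

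**Figure D2:**
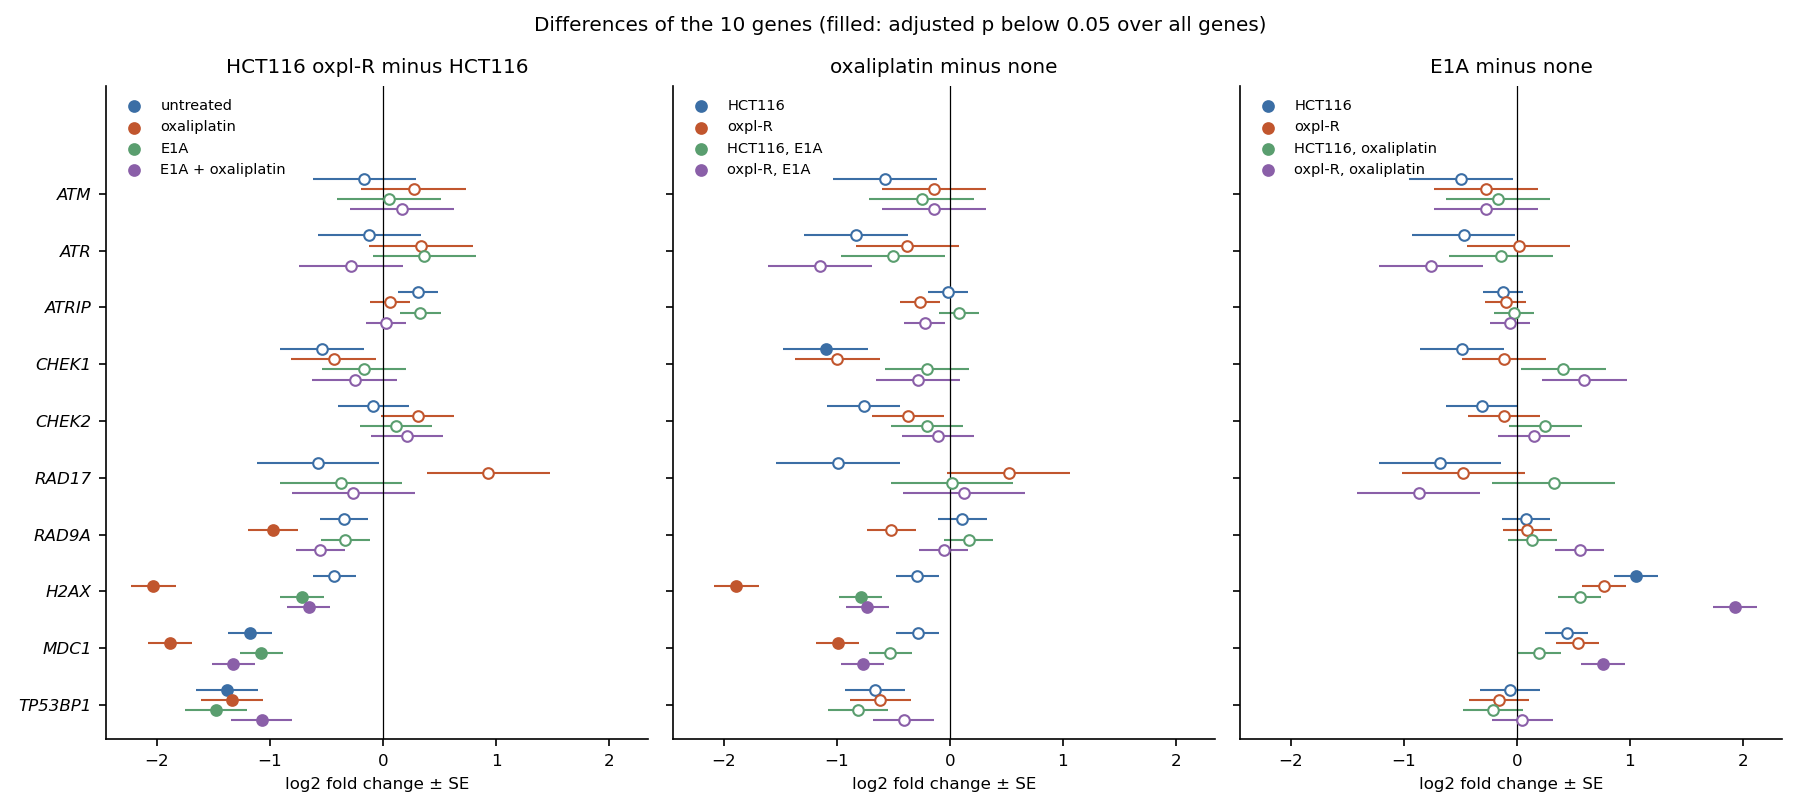
Log2 fold changes of the 10 genes (horizontal axis, error bars SE) between the lines, with oxaliplatin and with E1A, where filled points passed an adjusted p of 0.05 over all genes tested. The filled points are those of H2AX, MDC1 and TP53BP1 but for 1 of RAD9A and 1 of CHEK1, with H2AX at -2.03 between the lines under oxaliplatin and at 1.93 with E1A on oxaliplatin in HCT116 oxpl-R.

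Induction of E1A raised H2AX in HCT116, and in HCT116 oxpl-R under oxaliplatin. In HCT116 without the drug it went up 2.08-fold (log2 fold change 1.06 ± 0.19, SE, edgeR adjusted p = 0.00406), and it was the only one of the 10 genes called there, against 0.422% of the genes of the count table called higher. Without HCT116 control replicate 1 or replicate 2 the adjusted p was 0.0525 and 0.0545. When only these groups were fitted, edgeR also called RAD17 (-0.73, adjusted p = 0.00477), CHEK1 (-0.53, 0.0154) and ATR (-0.52, 0.0206) lower and MDC1 (0.40, 0.0279) higher. In that fit 477 of 16416 genes were called higher and 1082 lower. In HCT116 oxpl-R the value of H2AX was 0.77 ± 0.19, which did not pass (adjusted p = 0.102). For it DESeq2 (0.00727), the length-scaled table (0.00439), limma (0.00298) and the GC and length offsets (0.00142) gave a call. None of the 10 genes was called there by the edgeR test, where 0.226% of the genes were called higher. At an unadjusted p under 0.05 there were 2 of the 10, against 5% of the genes. The difference between the E1A responses of H2AX in the lines was -0.28 ± 0.27 (adjusted p = 1), and none of the 10 genes passed that interaction test by edgeR, DESeq2 or limma, where 0.0103% of the genes passed by edgeR. None had an unadjusted edgeR p under 0.05 in it, against 1.83% of the genes.

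On oxaliplatin, E1A raised H2AX 3.81-fold in HCT116 oxpl-R (log2 fold change 1.93 ± 0.20, SE, edgeR adjusted p = 2.16e-07), which brought it from a mean of 62.9 to 240.1 CPM, beside 233 CPM in untreated cells of that line. MDC1 rose 1.7-fold in the same comparison (adjusted p = 0.0338). That call was lost in 4 of the 6 fits that left out a sample, with adjusted p-values of 0.215 and 0.0958 without E1A + oxaliplatin replicates 1 and 3, and of 0.155 and 0.148 without oxaliplatin replicates 1 and 2. These 2 genes were called higher of 10, where 1.29% of the genes were. In HCT116 the same comparison called none of the 10 by edgeR, DESeq2 or limma, where 0.0874% of the genes were called higher by edgeR, and 1 had an unadjusted edgeR p under 0.05, against 3.1% of the genes. There H2AX changed by 0.56 ± 0.19 (adjusted p = 1). The E1A effect on H2AX in HCT116 oxpl-R with the drug exceeded that without it by 1.16 ± 0.27. This interaction did not pass (adjusted p = 0.219, background 0.036%), and it passed with DESeq2 (0.0146), on the length-scaled table (0.0481), with limma (0.0227) and with the GC and length offsets (0.0112). In HCT116 the same interaction called none of the 10 by edgeR, DESeq2 or limma, where 0.0103% of the genes passed by edgeR, and none had an unadjusted edgeR p under 0.05, against 3.58% of the genes. Samples with and without E1A did not overlap for 4 and 2 of the 10 genes without the drug (background 18.8% and 9.84%) and for 1 and 3 with it (4.99% and 10.9%), again in HCT116 and HCT116 oxpl-R in that order.

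Cell cycle genes fell with H2AX under oxaliplatin in HCT116 oxpl-R, and most S phase genes rose with it when E1A was added to the drug. The summed level of 18 S phase genes was 2615, 2723 and 2480.2 CPM in HCT116 under oxaliplatin and 1232, 1247 and 1313 CPM in HCT116 oxpl-R, and E1A together with the drug brought it to 2488, 2312 and 2454 CPM in the resistant line. Under oxaliplatin in HCT116 oxpl-R 17 of the 18 fell and none rose (background 3.01% lower), against 9 that fell in HCT116 (8.61%). With E1A on oxaliplatin in HCT116 oxpl-R 13 of the 18 rose (background 1.29% higher), among them MCM7 and CDC6. Of 19 G2 and M phase genes 17 fell under oxaliplatin in HCT116 oxpl-R and 8 in HCT116, at the same backgrounds. Their summed level was 353, 307 and 505 CPM against 1345, 1417 and 1531 CPM. With E1A on oxaliplatin in HCT116 oxpl-R 6 of the 19 rose, and the sum was 650, 595 and 921 CPM. Untreated cells of that line were at 1626, 1704 and 1874 CPM. Fewer cells in S phase and less RNA per cell cannot be told apart in such bulk samples, and the part of the cell cycle in the H2AX values was not tested. By flow cytometry, after a longer exposure to the same dose, the study reported that both lines accumulated in G2/M. The RNA sums given here do not count cells in a phase. The genes whose pattern over the 24 samples was most like that of H2AX were CHAF1B (Pearson r = 0.94 of log2(CPM + 1), among 9991 genes), SCARA3 (0.94) and MCM7 (0.93).

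**Figure D3:**
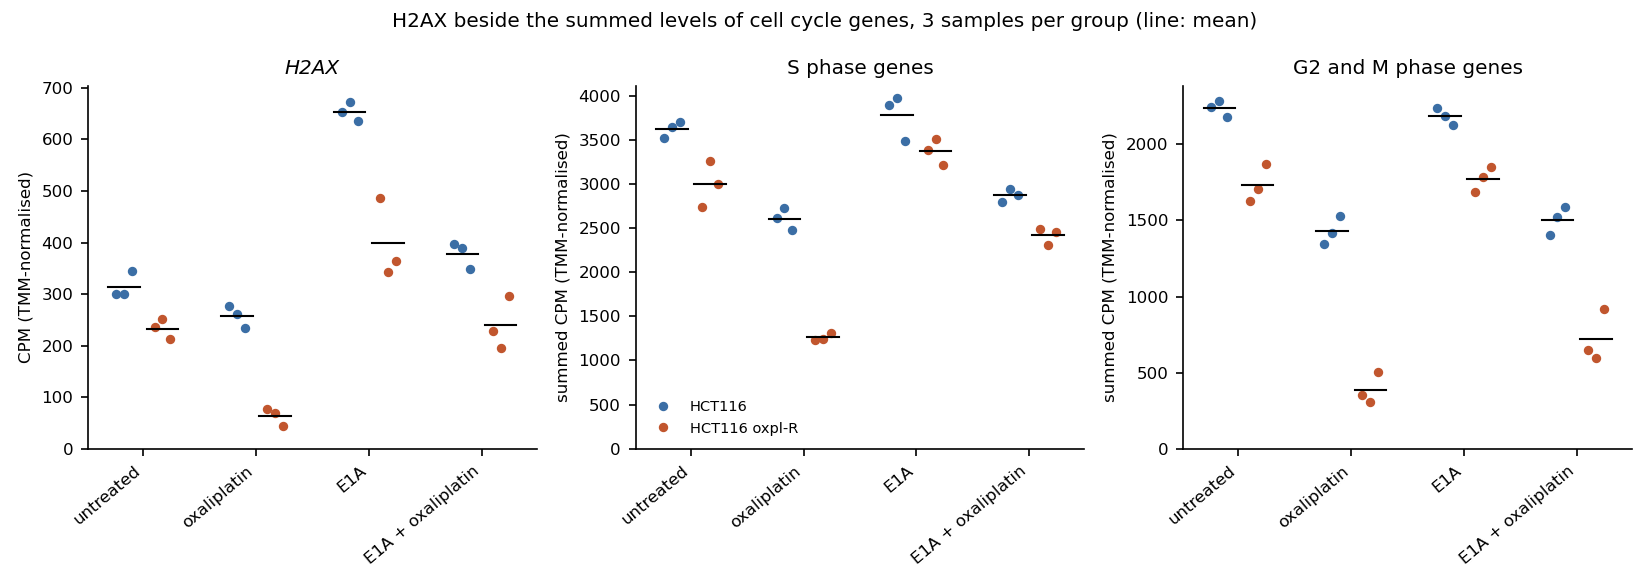
H2AX in CPM beside the summed CPM of 18 S phase and 19 G2 and M phase genes (vertical axes, from 0), with 3 samples per group as points and the mean as a line. All 3 are lowest in HCT116 oxpl-R under oxaliplatin, where the S phase sum lies between 1232 and 1313 CPM.

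The apical kinases differed widely between replicates of a group. ATM (chromosome 11, 108223044 to 108369102, plus strand) was at 10.9, 13.3 and 10.1 CPM in untreated HCT116 and at 8.47, 5.97 and 16.3 CPM in untreated HCT116 oxpl-R. ATR (chromosome 3, 142449007 to 142578733, minus strand) was at 18, 21.8 and 16.2 CPM against 11.3, 11.5 and 28.8 CPM. For both the third resistant sample was the highest and the lines overlapped. Under oxaliplatin HCT116 gave 2.26, 3.48 and 17.3 CPM of ATM (63, 96 and 548 counts) and 3.26, 4.86 and 23.3 CPM of ATR (91, 134 and 738 counts). The third sample stood far above the others for each gene.

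Results on ATM and ATR under oxaliplatin in HCT116 turn on that sample. With it, the changes were -0.57 ± 0.46 for ATM and -0.83 ± 0.46 for ATR (log2 fold change ± SE, edgeR adjusted p = 0.464 and 0.241). Without it, they were -1.95 (adjusted p = 0.000885) and -2.15 (adjusted p = 0.000359), and the line differences under oxaliplatin became 1.65 for ATM (adjusted p = 0.00257) and 1.66 for ATR (adjusted p = 0.00235), higher in HCT116 oxpl-R. In HCT116 oxpl-R oxaliplatin changed ATM by -0.14 ± 0.46 and ATR by -0.38 ± 0.46, and neither passed. The third HCT116 oxaliplatin sample deviated from its group towards long transcripts (r = 0.50 with transcript length over genes). The first and second deviated towards short ones (-0.43 and -0.39), and the fits without the third rest on them. Deviations from a mean of 3 samples do not show which sample departs. The longest transcripts of ATM and ATR have 13130 and 8158 bases. The deviations of ATM and ATR from their group means were correlated over the 24 samples (r = 0.94).

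ATRIP (chromosome 3, 48446710 to 48467645, plus strand), which binds ATR to coated single strands, varied least of the 10 genes. It lay between 23.9 and 41.2 CPM in all 24 samples. In untreated cells it was at 27.7, 31.3 and 33.1 CPM in HCT116 and at 36.5, 41.2 and 36.3 CPM in HCT116 oxpl-R, without overlap. That difference of 0.31 ± 0.18 did not pass with edgeR (adjusted p = 0.302). With the GC and length offsets it was 0.41 and passed (edgeR adjusted p = 0.0367). With E1A the value was 0.33 ± 0.18 (adjusted p = 0.25), which passed with DESeq2 (0.0355), after filterByExpr (0.0472) and with the GC and length offsets (0.0036). The median log2 fold change of chromosome 3 was 0.41 over 634 expressed genes in untreated cells, and 42.3% of them lay below ATRIP. With E1A that median was 0.40, and 45% of the genes lay below ATRIP. ATRIP overlaps TREX1 on the same strand, and reads of the shared part could be split between them.

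RAD17 (chromosome 5, 69369293 to 69414801, plus strand), the loader of the clamp, had the widest spread between replicates. In HCT116 oxpl-R it was at 21.1, 8.28 and 36.9 CPM untreated, at 24.4, 14.3 and 56.4 CPM under oxaliplatin, at 7.04, 6.82 and 33.8 CPM with E1A and at 7.6, 13.5 and 30.9 CPM with both. The third sample of each resistant group was the highest. In HCT116 it was at 36.4, 36.7 and 25.8 CPM untreated and at 9.93, 18.5 and 21.3 CPM under oxaliplatin, a change of -0.99 ± 0.55 (edgeR adjusted p = 0.239). RAD17 was called in none of the 16 comparisons, and without HCT116 oxpl-R E1A replicate 3 the line difference with E1A was -1.57 (adjusted p = 0.0423). Known pseudogenes of CHEK2 and RAD17 took at most 1 count in a sample.

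The 10 genes differed in how far replicates of a group lay apart. The median coefficient of variation within groups was 57.2% for RAD17, 41.5% for CHEK1, 35.3% for ATM, 31.6% for CHEK2 and 29.2% for ATR, which put each of them above at least 90.9% of 8863 genes of the count table. It was 14.5% for RAD9A, 13.2% for MDC1, 8.52% for H2AX and 7.24% for ATRIP, against a median of 13.5% over those genes, and 21.9% for TP53BP1. CHEK1, CHEK2 and RAD17 deviated together (r = 0.95 for CHEK1 with CHEK2, 0.96 for CHEK1 with RAD17 and 0.87 for CHEK2 with RAD17 over 24 samples). So did H2AX and RAD9A (0.82). Deviations of CHEK1 (r = -0.62), CHEK2 (-0.61) and RAD17 (-0.53) ran against the GC trend of the libraries, and that of RAD9A with it (0.68). The longest transcripts of CHEK1 and RAD17 are 41.6% and 40.1% GC. The SE of the line difference in untreated cells was 0.54 for RAD17 and 0.46 for ATM against 0.19 for MDC1, so the absence of a call for the kinases does not show equal levels.

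**Figure D4:**
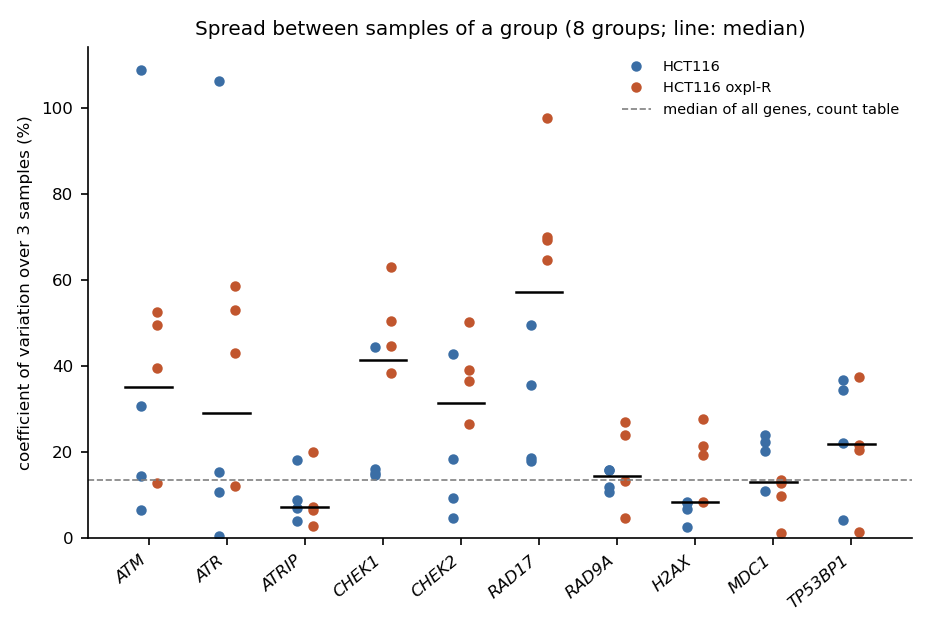
Coefficient of variation over the 3 samples of a group, in percent (vertical axis), for each of the 10 genes, 1 point per group and the median as a line, with the median of 13.5% over genes of the count table dashed. ATM and ATR reach 109% and 106% in HCT116 under oxaliplatin, and ATRIP stays at or below 20%.

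The other patterns most alike to single genes were, for MDC1, HSPA2 (r = 0.98), OAS3 and DNMT3B (both 0.96), and for TP53BP1, HIPK2, GEMIN5 (both 0.97) and SIN3A (0.97 among 11903 genes of the second table). CHEK1 was most like C5orf34, DEPDC1B and PRIM2 (all 0.96). RAD17 was most like HBS1L (0.98), ATM like PAXBP1 (0.91) and ATR like PDS5B (0.94). CHEK2 was most like PRPS1 (0.93), RAD9A like DNPH1 (0.94) and ATRIP like ERP29 (0.86). All samples of a group share its treatment and its library traits, so these values describe and do not test.

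Of 40 other genes of the checkpoint, listed by role, 38 were tested, and TTI1 and TTI2 were not analysed here. In untreated cells 4 of the 38 were higher and 4 lower in HCT116 oxpl-R, where 7.19% and 6.93% of the genes of the count table were, so the shares are near the background. The largest rises were those of CDKN1A, the inhibitor of cyclin-dependent kinases (log2 fold change 1.97 ± 0.18, SE, edgeR adjusted p = 1.65e-09), the ubiquitin ligase MDM2 (0.72, adjusted p = 0.0146) and RNF168 (0.64, adjusted p = 0.043). The largest falls were RPA1, the large subunit of the single-strand binding complex (-0.94, adjusted p = 0.000495), the cohesin subunit SMC1A (-0.65) and the CDK1 inhibitory kinase PKMYT1 (-0.60). The ubiquitin ligase RNF168, which acts between MDC1 and TP53BP1, was higher in HCT116 oxpl-R in all 4 conditions. In untreated cells it was at 27.4, 29.2 and 27 CPM in HCT116 against 48.5, 44 and 37.7 CPM in HCT116 oxpl-R. The values of RNF168 were not set against a chromosome median, as those of MDC1 and TP53BP1 were. Whether its chromosome as a whole was higher was therefore not tested, and no contrast with those genes is drawn.

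Under oxaliplatin 9 of the 38 were higher and 13 lower in HCT116 oxpl-R than in HCT116 (background 13.7% higher and 12% lower). The largest falls were PKMYT1 (log2 fold change -2.92 ± 0.21, SE, edgeR adjusted p = 9.29e-12), BRCA1 (-1.87, adjusted p = 0.000226) and the CHEK1 adaptor CLSPN (-1.58, adjusted p = 0.000201). The largest rises were MDM2 (2.34, adjusted p = 6.94e-10), RNF168 (adjusted p = 1.82e-05) and CDKN1A (1.14, adjusted p = 1.04e-05). CDKN1A, MDM2, MDM4, GADD45A and SFN, 5 genes listed together as targets and regulators of the damage response, were all higher in the resistant line in that condition and with E1A and oxaliplatin. With E1A 4 of the 38 were higher and 3 lower (background 6.69% and 7.75%), and with both 10 were higher and 7 lower (10.3% and 8.92%).

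Oxaliplatin raised 4 and lowered 14 of the 38 in HCT116 (background 8.74% and 8.61%), and raised 5 and lowered 18 in HCT116 oxpl-R (3.1% and 3.01%). CDKN1A rose in both lines, by 3.70 ± 0.20 (log2 fold change ± SE, edgeR adjusted p = 5.97e-14) and by 2.87 ± 0.19 (adjusted p = 1.14e-11). SFN, a 14-3-3 protein, rose by 1.11 and 1.56. MDM2 rose in HCT116 oxpl-R by 2.08 (adjusted p = 1.99e-08), and its response differed between the lines (interaction 1.62 ± 0.29, adjusted p = 0.00111). In HCT116 the largest falls were MDM4 (-1.59), CCNB1 (-1.46) and CDC25C (-1.29), and in HCT116 oxpl-R they were CLSPN (-2.09), BRCA1 (-1.97) and PKMYT1 (-1.81). The responses of PKMYT1 (-2.32, adjusted p = 8.61e-06), CDC25A (-1.48, adjusted p = 0.000216) and TELO2 (-1.09, adjusted p = 0.0117) were lower in HCT116 oxpl-R by the interaction test. By group, 2 of the 7 clamp and loader genes fell in HCT116 and 4 in HCT116 oxpl-R, with RFC4 and RFC5 in both. Of the 8 ATR activators and fork proteins 5 fell in HCT116 and 4 in HCT116 oxpl-R, with CLSPN, RPA1 and RPA2 in both. In the edgeR test of a difference between the responses of the lines no gene of these groups passed, with 2 and 4 at an unadjusted p under 0.05 (15.6% of all genes).

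On E1A, oxaliplatin raised 3 and lowered 4 of the 38 in HCT116 (background 3.4% and 4.69%), and raised 5 and lowered 4 in HCT116 oxpl-R (1.7% and 1.1%), with CDKN1A first in both (2.75 and 2.50). E1A without the drug called none of the 38 in either line by edgeR, with 2 at an unadjusted p under 0.05 in each (6.25% of all genes in HCT116 and 5% in HCT116 oxpl-R). E1A on oxaliplatin called none in HCT116, with 4 at that level (3.1% of all genes). With E1A on oxaliplatin in HCT116 oxpl-R 6 of the 38 rose and none fell (background 1.29% and 0.103%), led by CDC25A (1.48 ± 0.17, edgeR adjusted p = 8.21e-07), PKMYT1 (1.41, adjusted p = 7.38e-05) and CLSPN (1.40, adjusted p = 0.00959), with RFC2, RFC4 and TELO2 besides. H2AX rose in the same comparison.

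**Figure D5:**
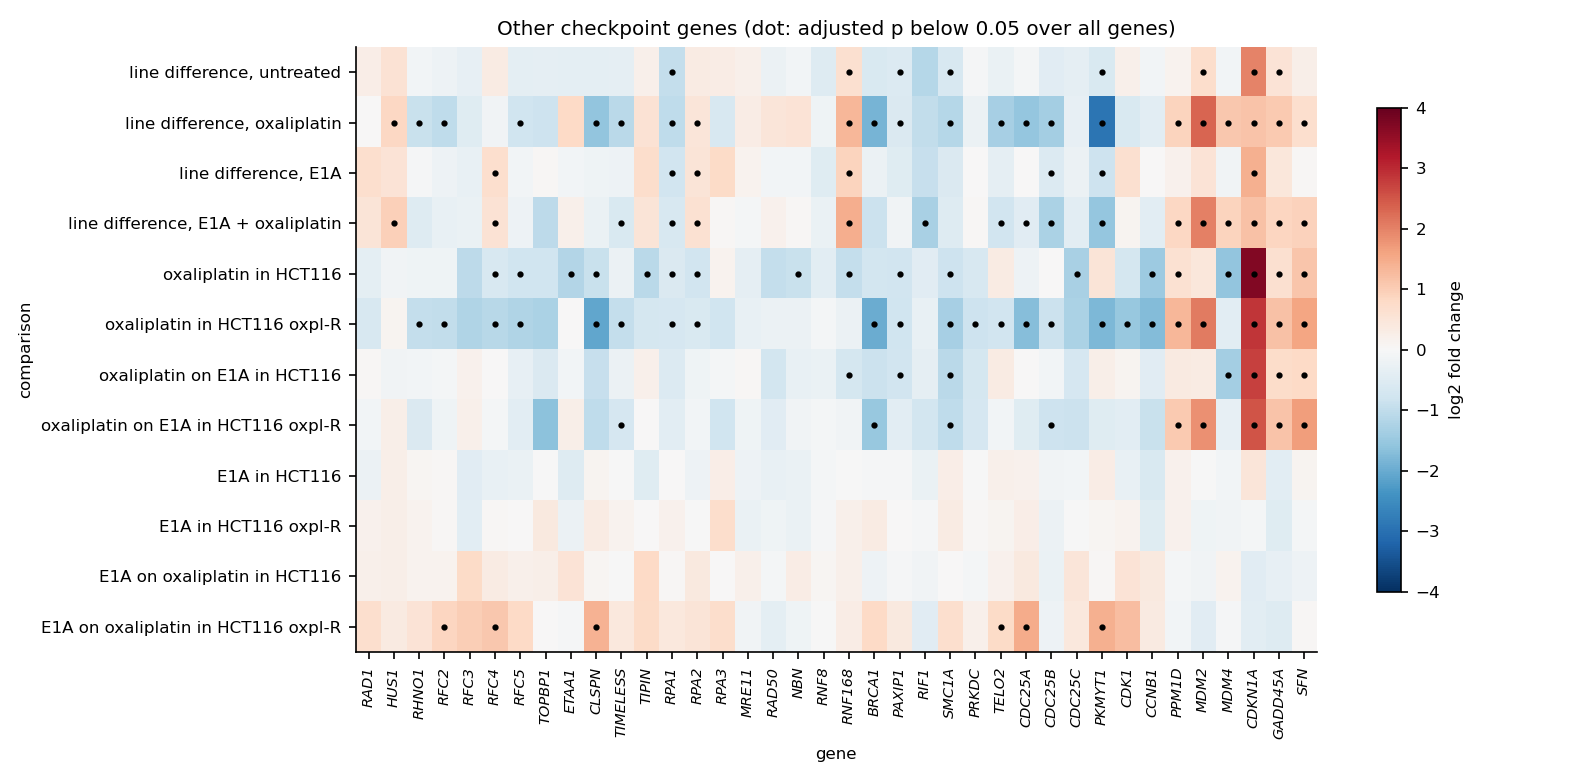
Log2 fold changes (colour) of the 38 other checkpoint genes (columns) in 12 comparisons (rows), with a dot where the adjusted p over all genes tested was below 0.05. CDKN1A rises by 3.70 in HCT116 under oxaliplatin, PKMYT1 stands at -2.92 between the lines under oxaliplatin, and E1A alone gives no dot.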

How the data were processed

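RNA of HCT116 and HCT116 oxpl-R cells, 8 groups of 3 samples by the labels, was sequenced as paired-end reads on an Illumina NovaSeq X. After trimming with Trimmomatic, the authors ran Salmon 1.6.0 (selective alignment, bias models for sequence and GC) against GENCODE 47 on GRCh38, and tximport gave gene totals. What they deposited are estimated counts, not normalized, of which 15.93% to 30.393% in a sample were not whole, and these were rounded here. The deposited count table ends at SETP6. A second deposited table is named TPM, but its columns sum to 28004261 to 42613322, so it was read as length-scaled estimated counts, another unit than was planned for. TP53BP1 was tested on it alone.

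Counts were tested in R 4.3.3 with edgeR 4.0.16 (TMM, quasi-likelihood test, all 24 samples in one fit with 16 residual degrees of freedom, genes with a count in any sample), with Benjamini-Hochberg adjustment over all genes of the table. A gene was called at an adjusted p below 0.05. The 16 comparisons were 4 between the lines, 4 of oxaliplatin, 4 of E1A and 4 interactions. Comparisons share control groups. Nothing beyond the label of biological replicate says how samples were separated, so p-values measure the spread between these samples. The test was first run on simulated counts with the same dispersion for all genes and no GC or length trend. That run does not cover genes with a wide spread between replicates. Alternatives were RLE, DESeq2 1.42.0, filterByExpr, fits of the compared groups only, the replicate number as a block, the length-scaled table, limma 3.58.1 on log2(value + 1), each sample left out and, chosen after seeing the data, offsets for GC content and length.

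Expressed genes have a mean of at least 10 counts, and the spread was taken over genes with at least 100. Positions, lengths and GC come from GENCODE 44 by symbol, for 32476 of 33113 genes, and promoters from RefSeq. Tables and plots were made with Python 3.11.15, pandas 2.3.3, numpy 2.4.6 and matplotlib 3.10.9. The 10 genes and the lists were chosen with earlier results of these data known. All 10 are named in the text. Of the other checkpoint genes, at most the 3 largest rises and falls called per comparison are named, with group members by count; RNF168, RFC2, RFC4, RFC5, TELO2, MCM7 and CDC6 were added after their values were seen where the rule did not name them. A further gene of the list is not reported here. The 3 most alike genes were ranked by Pearson r of log2(CPM + 1) among genes with a mean of at least 1 CPM.

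Pairing by replicate number was checked: same-numbered samples deviated alike across genes (all 3 correlations above 0.1) in 2 comparisons of the count table, the lines under oxaliplatin (0.14, 0.19 and 0.25) and oxaliplatin on E1A in HCT116 oxpl-R (0.42, 0.48 and 0.53). On the second table they did so in the latter (0.37, 0.36 and 0.47) and in E1A on oxaliplatin in HCT116 oxpl-R (0.10, 0.16 and 0.35).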

Additional observations from a re-analysis of the deposited data

Results flagged for a closer look

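The response of H2AX to oxaliplatin differed between the lines by a test of the difference itself. The interaction term was -1.60 ± 0.27 on the log2 scale (SE, edgeR adjusted p = 0.000711), with all 3 treated HCT116 oxpl-R samples below the untreated ones by more than in HCT116. Beside it, 17 of 18 S phase genes fell in HCT116 oxpl-R and 9 in HCT116, where 3.01% and 8.61% of all genes were called lower. The part of these genes in the result was not tested. Groups of 3 samples were not searched for single outlying samples.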

How the results depend on the processing

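The number of the 10 genes called changed by more than 1.5 times under some settings. Between untreated lines it was 2, and 5 with the GC and length offsets (chosen after seeing the data). For oxaliplatin in HCT116 it was 1, and 0 with RLE, filterByExpr, the length-scaled table and limma, 3 when only the groups compared were fitted, and 4 with the replicate number as a block. For oxaliplatin on E1A it was 1 in HCT116, and 2 with DESeq2. In HCT116 oxpl-R it was 2, and 1 with only the groups compared, the length-scaled table and limma, which also held for E1A on oxaliplatin there. For E1A in HCT116 it was 1, and 5 with only the groups compared. For E1A in HCT116 oxpl-R and for its interaction with oxaliplatin there it was 0, and 1 with DESeq2, the length-scaled table, limma and the offsets. For the line interaction with oxaliplatin it was 1, and 2 with DESeq2 and the offsets. The cause was not tested.

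With each sample left out in turn, the number ran from 2 to 2 between untreated lines, 4 to 6 under oxaliplatin, and 2 to 4 both with E1A and with E1A and oxaliplatin. For oxaliplatin it ran from 0 to 3 in HCT116, 2 to 3 in HCT116 oxpl-R, 0 to 3 on E1A in HCT116 and 0 to 2 on E1A in HCT116 oxpl-R. For E1A it ran from 0 to 1 in HCT116 and 1 to 2 on oxaliplatin in HCT116 oxpl-R, and stayed at 0 in the other comparisons. The interactions ran from 1 to 3 (oxaliplatin by line) and 0 to 1 (E1A by oxaliplatin in HCT116 oxpl-R), with 0 in the rest. The highest values under oxaliplatin, 6 between the lines and 3 for the interaction, came without HCT116 oxaliplatin replicate 3.

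In the 2 comparisons where replicate numbers paired the samples of the count table, the block left 4 and 2 genes called, and in E1A on oxaliplatin in HCT116 oxpl-R, paired on the second table only, it left 2. In the other comparisons not all 3 correlations were above 0.1. For oxaliplatin in HCT116 they were -0.18, -0.12 and -0.27, and the block gave 4, with ATR, CHEK2 and RAD17 added. For oxaliplatin in HCT116 oxpl-R they were 0.08, 0.47 and 0.55, so samples of replicates 2 and 3 deviated alike. There the block gave 3, with CHEK1 added (edgeR adjusted p = 0.0366). For E1A in HCT116 oxpl-R the correlations were 0.03, 0.51 and 0.68. No result changed sign while called. Of the values of single genes, 2171 kept direction and call, 36 lost the call, 50 gained one, and 207 that were not called changed sign.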
